A study of Mus musculus with 11 samples.

Results

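The genes described here were 7 of the 26283 genes measured in mouse mammary tumors, chosen as strong rises and falls between PyMT *Pcbp1*–/– and PyMT *Pcbp1*+/+ tumors outside the interferon genes. They were *Otor*, *Pm20d1*, RP24-225A16.7, RP23-100B18.3 and RP23-75A23.1, which were higher in PyMT *Pcbp1*–/– tumors, and *Ntng1* and *Pcdh9*, which were lower. Because they were chosen by their values in this contrast, their differences between the genotypes are given as a description, with no test. RNA was sequenced from 11 flash-frozen tumors of 18-week-old C57BL/6 females, 6 PyMT *Pcbp1*–/– and 5 PyMT *Pcbp1*+/+. All animals carried the MMTV-PyMT oncogene and MMTV-Cre. PyMT *Pcbp1*–/– animals were *Pcbp1*(fl/fl), and PyMT *Pcbp1*+/+ animals had non-floxed *Pcbp1*(wt/wt) alleles. The MMTV promoter drives Cre in mammary epithelium, so other cells of a whole tumor may keep *Pcbp1*, which was not measured by cell type here. The study's methods describe homozygous litters of either genotype and no littermate controls, so other inherited differences between the groups and the loss of *Pcbp1* cannot be told apart.

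PCBP1 is a protein that binds C-rich single strands of RNA and DNA and takes part in splicing, RNA stability and translation. *Otor* and *Pm20d1* encode secreted proteins, *Ntng1* and *Pcdh9* encode surface proteins best known from the contacts between neurons, and the other 3 are a long non-coding RNA, an antisense RNA and a processed pseudogene, which is a copy of a messenger RNA inserted into the genome.

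The deposited estimated counts summed to between 10543189 and 14092192 per tumor. The median total was 13135786 in PyMT *Pcbp1*–/– and 10975700 in PyMT *Pcbp1*+/+ tumors, and the means differed (p = 0.00866, exact permutation test, two-sided). Levels are therefore given as CPM, the counts per tumor after scaling all totals alike. A count of 0 allows up to 3 counts, or between 0.213 and 0.285 CPM, and such limits cover counting error only. *Pcbp1* itself had 19.5, 19.2, 28.1, 22.3, 15.4 and 33.6 CPM in PyMT *Pcbp1*–/– and 268, 271, 225, 220 and 259 CPM in PyMT *Pcbp1*+/+ tumors. The means were 23.0 ± 6.70 (SD, n = 6) and 249 ± 24.4 (SD, n = 5), and the log2 fold change was -3.43 (SE 0.19, adjusted p = 4.72e-06 from edgeR's quasi-likelihood test), and each tumor fell on the side of its label. Across all 19232 genes that passed the filter on low counts, 436 had an adjusted p under 0.05, which is 2.27%. Of these, 117 (0.608%) were higher and 319 (1.66%) were lower in PyMT *Pcbp1*–/– tumors.

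All 7 chosen genes passed that filter, the 5 higher ones through their levels in PyMT *Pcbp1*–/– tumors. In the deposited CPM, 5 of them lay higher in every PyMT *Pcbp1*–/– tumor than in any PyMT *Pcbp1*+/+ tumor, as did 1.27% of all genes tested, and 1, *Ntng1*, lay lower without overlap, as did 2.02%. These counts follow from how the genes were chosen. Of the 20 genes called lower by edgeR with a larger fall than *Ntng1*, 11 were on a list of 40 interferon-stimulated genes and 4, *Pcbp1* among them, were other protein-coding genes.

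**Figure D1:**
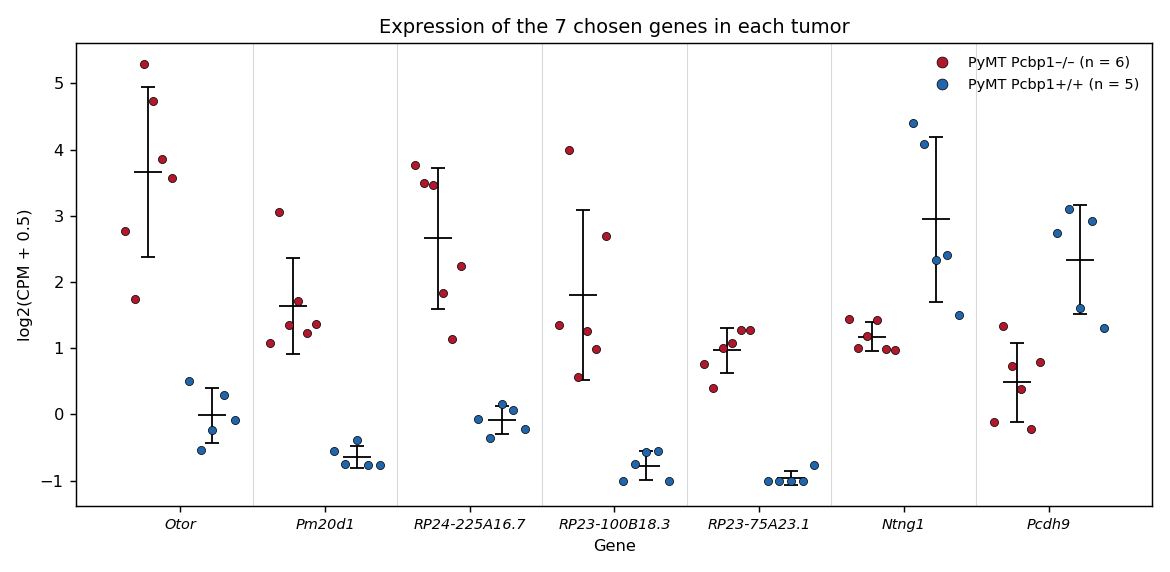
Expression of the 7 chosen genes, as log2(CPM + 0.5) on the vertical axis, with 1 point per tumor, red for the 6 PyMT *Pcbp1*–/– and blue for the 5 PyMT *Pcbp1*+/+ tumors. The horizontal marks and bars give the group mean and SD. The groups overlap for *Pcdh9*, where the highest PyMT *Pcbp1*–/– tumor had 2.02 CPM and the lowest PyMT *Pcbp1*+/+ tumor 1.96 CPM, and in no other gene shown.

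*Otor* encodes otoraplin, a small secreted protein of the MIA family known from the inner ear. The gene (ENSMUSG00000027416.2) lies on the plus strand of chromosome 2 of GRCm38 from 143078473 to 143081713. In PyMT *Pcbp1*–/– replicates 1 to 6 its level was 6.32, 2.85, 38.5, 26.2, 14 and 11.4 CPM. In PyMT *Pcbp1*+/+ replicates 1 to 5 it was 0.914, 0.190, 0.350, 0.729 and 0.447 CPM. The groups did not overlap, replicates 3 and 4 stood highest among the PyMT *Pcbp1*–/– tumors, and replicate 2 was the lowest of them. The spread within PyMT *Pcbp1*–/– tumors was 13.5-fold from the lowest to the highest. The log2 fold change was 4.96 (SE 0.72), and the ratio of summed CPM-scaled counts was 30.8, with an exact 95% counting interval from 21.3 to 46.2. Here and below, such intervals pool the counts of each genotype and leave out the spread between its tumors.

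*Pm20d1* encodes a secreted enzyme that joins fatty acids to amino acids and splits the resulting N-acyl amino acids, and it is known from brown and beige fat. The gene lies on the plus strand of chromosome 1 from 131797381 to 131821473. PyMT *Pcbp1*–/– replicates 1 to 6 had 1.62, 7.80, 2.05, 2.78, 1.85 and 2.09 CPM. The PyMT *Pcbp1*+/+ tumors had 2, 1, 3, 1 and 1 counts, near the limit that a count of 0 allows. Replicate 2 stood far above the other PyMT *Pcbp1*–/– tumors, whose values lay close together, and all 6 were above every PyMT *Pcbp1*+/+ tumor. The ratio of the summed counts, scaled for depth, was 21.2 (exact 95% counting interval 10.6 to 49.7) and was 14.4 without PyMT *Pcbp1*–/– replicate 2. The same tumor stood apart in marker lists. Salivary gland genes summed to 705 CPM in replicate 2 against 196 to 457 CPM in the 5 others of that genotype, and basal epithelial genes to 188 CPM against 479 to 701 CPM. *Aqp5* was the most abundant salivary gland gene, *Bpifa2* and *Mucl2* were not in the table, and *Dcpp1*, *Dcpp2* and *Smr3a* were too low to be tested. Within the PyMT *Pcbp1*–/– tumors *Pm20d1* had r = 0.806 with the salivary gland list and -0.924 with the basal list. RP23-100B18.3, also highest in replicate 2, had 0.748 and -0.737. Over the 11 tumors, with each genotype's mean subtracted, r was 0.707 and -0.425 for *Pm20d1* and 0.595 and -0.413 for RP23-100B18.3. Without PyMT *Pcbp1*–/– replicates 1 and 2, *Pm20d1* had 0.421 and 0.399. Without replicates 2 and 6 of that genotype, RP23-100B18.3 had 0.340 and 0.066. The part of salivary gland and basal cells in the values of replicate 2 was not tested. With so few counts in PyMT *Pcbp1*+/+ tumors, a fitted fold change depends on the count the model adds to each library.

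*Ntng1* encodes netrin-G1, a netrin-like protein held on the surface of neurons by a lipid anchor, whose ligand is the leucine-rich repeat protein encoded by *Lrrc4c*. It lies on the minus strand of chromosome 3 from 109780040 to 110144011. The 6 PyMT *Pcbp1*–/– tumors had 2.22, 1.50, 1.78, 2.19, 1.49 and 1.47 CPM, and the 5 PyMT *Pcbp1*+/+ tumors 20.6, 16.5, 4.56, 4.83 and 2.32 CPM. The spread was therefore mostly among PyMT *Pcbp1*+/+ tumors, where replicates 1 and 2 were high and replicate 5 lay just above the highest PyMT *Pcbp1*–/– tumor. The coefficient of variation was 84.2% in PyMT *Pcbp1*+/+ and 19.9% in PyMT *Pcbp1*–/– tumors. The log2 fold change was -2.42 (SE 0.48).

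*Pcdh9* encodes a delta-protocadherin, a cadherin-family adhesion protein of neurons and other cells. It lies on the minus strand of chromosome 14 from 93013410 to 93890679. The PyMT *Pcbp1*–/– tumors had 0.427, 2.02, 1.16, 0.804, 0.355 and 1.24 CPM, and the PyMT *Pcbp1*+/+ tumors 6.21, 8.06, 2.54, 7.11 and 1.96 CPM. The groups overlapped, since PyMT *Pcbp1*–/– replicate 2 was above PyMT *Pcbp1*+/+ replicate 5. The log2 fold change was -2.33 (SE 0.45). In both *Ntng1* and *Pcdh9*, PyMT *Pcbp1*+/+ replicate 5 was the lowest tumor of its group and replicate 2 was among its higher tumors.

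RP24-225A16.7 is annotated as a long intergenic non-coding RNA on the plus strand of chromosome 12 from 76444497 to 76451336, 5005 bases after the end of *Ppp1r36*. Its function is not known. PyMT *Pcbp1*–/– replicates 1 to 6 had 13.1, 10.7, 10.6, 3.07, 1.70 and 4.25 CPM. PyMT *Pcbp1*+/+ replicates 1 to 5 had 0.457, 0.285, 0.613, 0.547 and 0.357 CPM. Replicates 1 to 3 of PyMT *Pcbp1*–/– stood together above replicates 4 to 6, and all were above the PyMT *Pcbp1*+/+ tumors. The log2 fold change was 3.95 (SE 0.58), and the ratio of summed counts was 15.3 (exact 95% counting interval 10.3 to 23.9).

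RP23-100B18.3 is annotated as an antisense RNA on the plus strand of chromosome 2 from 58276779 to 58286902, inside the span of *Acvr1c* on the minus strand, which encodes an activin receptor. PyMT *Pcbp1*–/– replicates 1 to 6 had 2.05, 15.4, 0.979, 1.90, 1.49 and 5.95 CPM, and the PyMT *Pcbp1*+/+ tumors had 0, 1, 2, 2 and 0 counts. Replicate 2 was again the highest tumor, followed by replicate 6. The ratio of summed counts was 52.1 (exact 95% counting interval 22.1 to 161.4), or 27.5 without PyMT *Pcbp1*–/– replicate 2. *Acvr1c* had between 0 and 2.10 CPM in PyMT *Pcbp1*–/– and between 0.625 and 5.61 CPM in PyMT *Pcbp1*+/+ tumors (log2 fold change -0.99, SE 0.80, adjusted p = 0.538 from edgeR). The estimated counts of both genes were whole, within 0.001, in 10 of 11 tumors, PyMT *Pcbp1*–/– replicate 2 being the exception. The labels name a stranded library kit, but the sources used here do not state that the counting used the strand. Reads of the 2 overlapping genes could therefore be shared, and the values of both are uncertain. PyMT *Pcbp1*–/– replicate 5 had 21 counts of RP23-100B18.3 and 0 CPM of *Acvr1c*. PyMT *Pcbp1*+/+ replicate 3 had 2 counts of RP23-100B18.3 and 5.61 CPM of *Acvr1c*. The part of shared reads in these values was not tested.

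RP23-75A23.1 is annotated as a processed pseudogene on the plus strand of chromosome 2 from 22067826 to 22069419. It had 14, 11, 17, 22, 27 and 25 counts in PyMT *Pcbp1*–/– replicates 1 to 6, while 4 PyMT *Pcbp1*+/+ tumors had 0 counts and replicate 5 had 1. The ratio of summed counts was 83.0, with an exact 95% counting interval from 14.6 to 3306. The gene passed the filter through the PyMT *Pcbp1*–/– tumors alone, and it was no longer tested when any of PyMT *Pcbp1*–/– replicates 1, 3, 4, 5 or 6 was left out.

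The transcript of this pseudogene is 1594 bases long and is a near copy of *Phgdh*, which encodes phosphoglycerate dehydrogenase, the enzyme that opens the serine synthesis pathway. In the GENCODE transcripts of GRCm39, matched by identifier, it aligned to *Phgdh* over 1602 positions with 95.5% identity. Over at least 90% of its length it matched 15 genes, *Phgdh* and 14 other processed pseudogenes, with identities from 87.1% to 95.7%. Reads could be split among such copies, so the values of each are uncertain, and shared reads, inherited differences between the groups and transcription of this copy cannot be told apart. The estimated counts of RP23-75A23.1 and of *Phgdh* were whole, within 0.001, in 11 of 11 tumors. *Phgdh* had 9.23, 7.72, 10.9, 14.6, 16.3 and 12.9 CPM in PyMT *Pcbp1*–/– and 7.58, 9.20, 7.80, 7.11 and 15.2 CPM in PyMT *Pcbp1*+/+ tumors. The groups overlapped widely, with a log2 fold change of 0.34 (SE 0.26, adjusted p = 0.508 from edgeR). Of the counts on RP23-75A23.1 and *Phgdh* together, the pseudogene took 11.1% in PyMT *Pcbp1*–/– tumors (116 against 930 counts) and 0.193% in PyMT *Pcbp1*+/+ tumors (1 against 517 counts), a description with no test. PyMT *Pcbp1*+/+ replicate 5, with one of the highest *Phgdh* levels, had only that 1 count.

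The deposited table held 8 of the 15 matching genes, and 4 of these were tested. The most abundant copy was AC118721.1, a pseudogene with between 34.5 and 80.3 CPM in PyMT *Pcbp1*–/– and between 30.5 and 72.1 CPM in PyMT *Pcbp1*+/+ tumors (log2 fold change 0.48, SE 0.28, adjusted p = 0.377 from edgeR). RP24-78F23.1 had a log2 fold change of 0.32 (SE 0.30, adjusted p = 0.608 from edgeR). The copy RP24-294I15.1 had 94 counts over the PyMT *Pcbp1*–/– and 12 over the PyMT *Pcbp1*+/+ tumors, and its log2 fold change of 2.40 (SE 0.58) did not pass the adjustment (adjusted p = 0.0512 from edgeR). Among the copies too low to be tested, RP23-14D20.1 had 4, 2, 3, 6, 5 and 4 counts in PyMT *Pcbp1*–/– replicates 1 to 6 and 0 in all 5 PyMT *Pcbp1*+/+ tumors. RP23-193O23.1 had 17 counts over the PyMT *Pcbp1*–/– tumors and 1 over the PyMT *Pcbp1*+/+ tumors. RP23-20K21.2 had 17 and 8 counts, and RP23-414I24.3 had 11.4 and 6, with overlap between the groups. These copies were looked at after the values of RP23-75A23.1 were known.

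**Figure D2:**
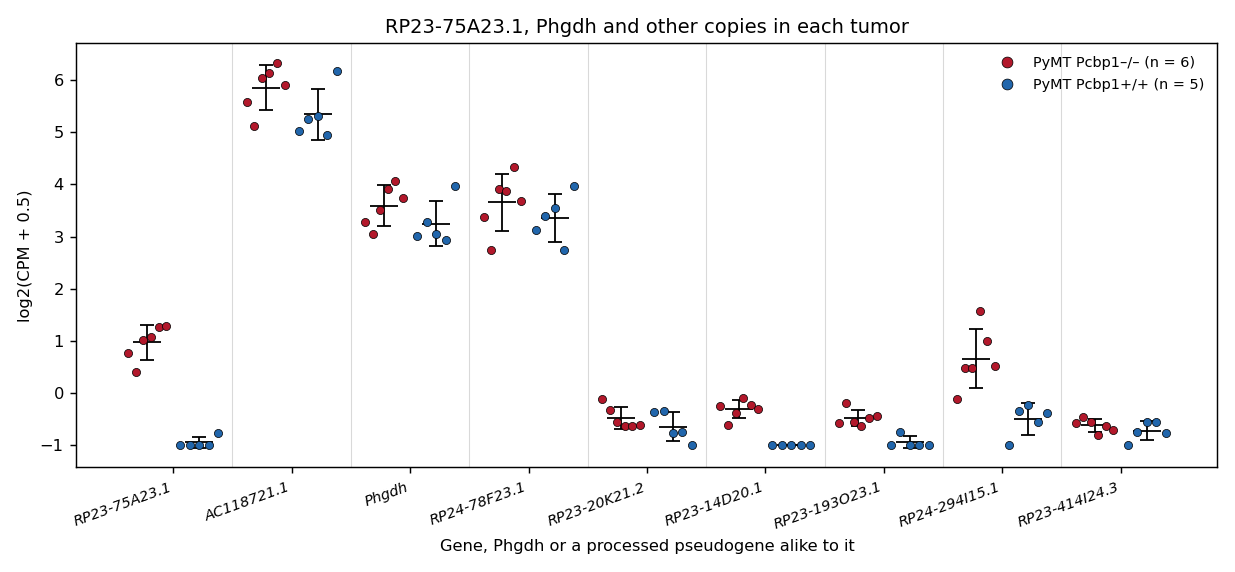
RP23-75A23.1, *Phgdh* and the 7 matching pseudogenes of the deposited table, as log2(CPM + 0.5) on the vertical axis, with 1 point per tumor, red for PyMT *Pcbp1*–/– (n = 6) and blue for PyMT *Pcbp1*+/+ (n = 5). Horizontal marks and bars give the group mean and SD. *Phgdh* overlaps between the groups, while RP23-75A23.1 had 116 counts over the red and 1 over the blue tumors.

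Genes around the chosen ones were asked whether they differed too, since they played no part in the choice. Of 68 other genes within 500 kb of a chosen gene, 54 were tested. Their median log2 fold change was -0.01, against 0.00 over all genes tested, with 26 above 0 and 28 below. At an adjusted p under 0.05, 2 were higher and 0 were lower by edgeR, and 12 (22.2%) had an unadjusted p under 0.05, against 18.7% of all genes tested. By edgeR, 2.27% of all genes tested were called. DESeq2 called 5 higher and 1 lower, and limma-voom 4 higher and 2 lower, where over all genes they called 486 higher and 730 lower and 968 higher and 1190 lower. These calls are 11.1% of the neighbors with either tool, against 6.32% of all genes with DESeq2 and 11.2% with limma-voom.

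*Snrpb2*, which encodes a protein of the U2 spliceosome particle, ends 5620 bases before *Otor*. It had 12.2, 8.85, 10.1, 8.99, 11.1 and 9.82 CPM in PyMT *Pcbp1*–/– and 7.86, 6.64, 6.83, 6.38 and 7.32 CPM in PyMT *Pcbp1*+/+ tumors. It was higher in all 6 PyMT *Pcbp1*–/– tumors than in any PyMT *Pcbp1*+/+ tumor, with a log2 fold change of 0.53 (SE 0.12, adjusted p = 0.0419 from edgeR), far below that of *Otor*. *Gpx2*, a glutathione peroxidase gene of epithelia, starts 340997 bases after RP24-225A16.7. It had 4.10, 1.80, 5.07, 2.85, 7.17 and 2.86 CPM and 1.28, 1.33, 0.0876, 1.00 and 0.268 CPM, again with no overlap (log2 fold change 2.35, SE 0.51, adjusted p = 0.0348 from edgeR). Both calls were close to the threshold. Leaving out single tumors, the adjusted p from edgeR ranged from 0.0311 to 0.105 for *Snrpb2* and from 0.0251 to 0.0849 for *Gpx2*, and each kept its call in 2 of 11 such fits. *Snrpb2* kept it without PyMT *Pcbp1*–/– replicate 2 or PyMT *Pcbp1*+/+ replicate 5, and *Gpx2* without PyMT *Pcbp1*–/– replicate 2 or PyMT *Pcbp1*+/+ replicate 2.

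The nearest tested neighbors of the other chosen genes did not pass the test with edgeR. Beside *Pm20d1*, the magnesium transporter gene *Slc41a1* had a log2 fold change of -0.13 (SE 0.12, adjusted p = 0.564 from edgeR) and the anion transporter gene *Slc26a9* one of -1.07 (SE 0.34, adjusted p = 0.121 from edgeR, and 0.0125 from limma-voom). Beside *Ntng1*, *Vav3* had 0.33 (SE 0.18) and the arginine methyltransferase gene *Prmt6* -0.15 (SE 0.12). The pseudogene RP24-325G24.1, before *Pcdh9*, had 0.28 (SE 0.14). *Ppp1r36*, next to RP24-225A16.7, had -0.32 (SE 0.25), and *Plekhg3* on its other side -0.13 (SE 0.10). Around RP23-100B18.3, *Cytip* had -0.14 (SE 0.18) and the receptor gene *Acvr1* -0.30 (SE 0.12). *Gpr158*, a receptor gene of neurons and the only tested neighbor of RP23-75A23.1, had 5.04 CPM on average in PyMT *Pcbp1*–/– and 1.79 CPM in PyMT *Pcbp1*+/+ tumors. The log2 fold change of *Gpr158*, 1.50 (SE 0.39), had an adjusted p of 0.0659 from edgeR, 0.00647 from DESeq2 and 0.0366 from limma-voom. On the other side of *Otor*, *Pcdh9* and RP23-75A23.1, no tested gene lay within 500 kb. Of the chosen genes, 3 of 7 lie on chromosome 2, far apart from each other.

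**Figure D3:**
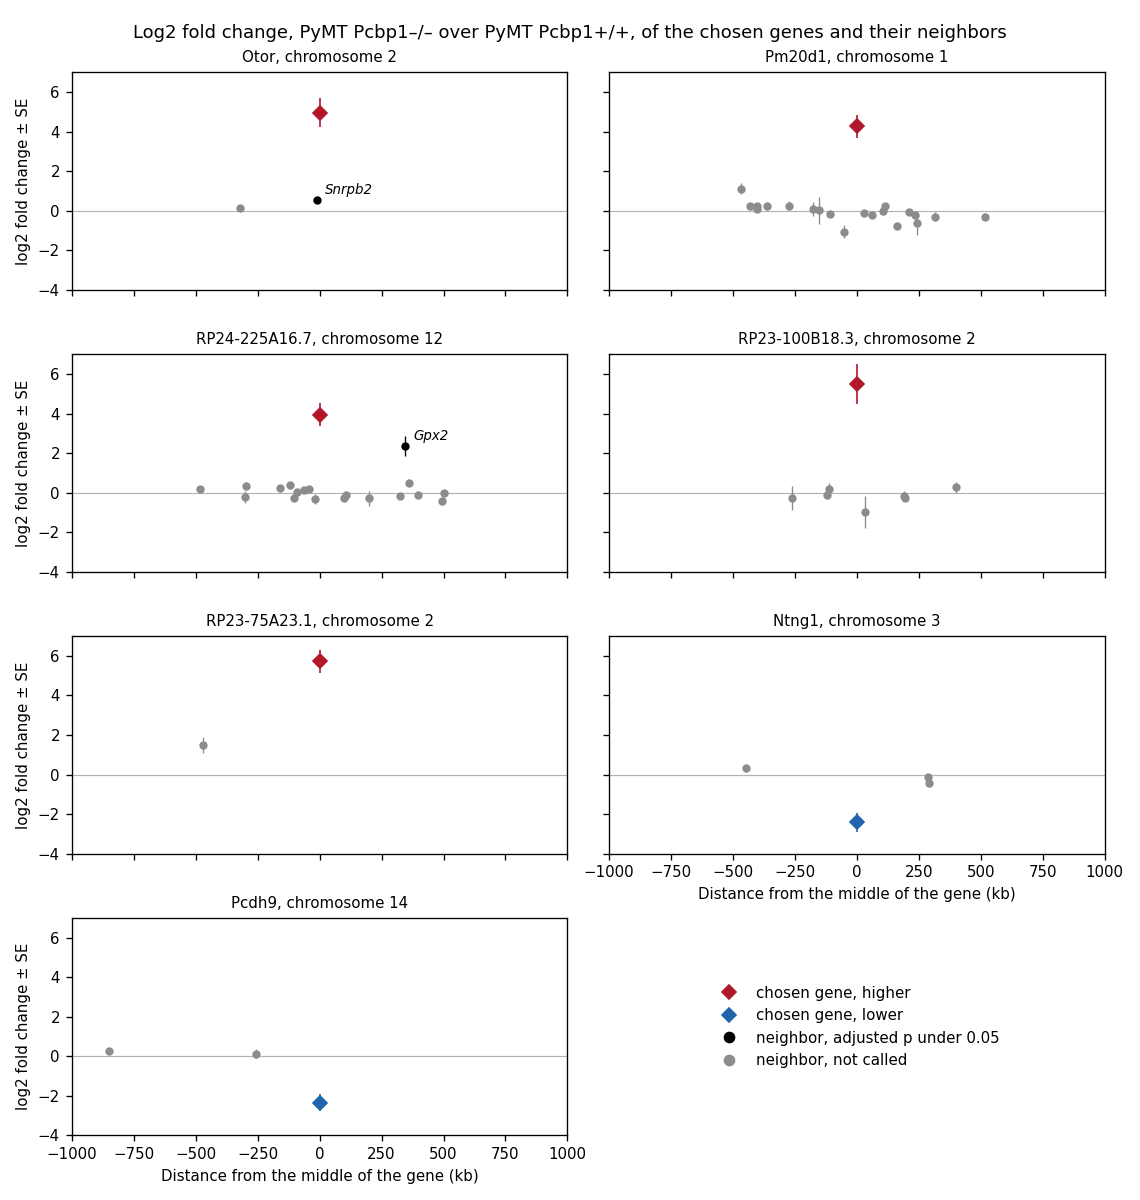
Log2 fold change (vertical axis, with its SE as a bar) of each chosen gene (diamond) and of the genes tested within 500 kb of its ends (circles), against the distance in kb between the middles of the genes. Black circles mark *Snrpb2* and *Gpx2*, the 2 neighbors with an adjusted p under 0.05, and the 52 others are gray.

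Families of the chosen genes were compared in the same fit. Among 29 tested family genes other than the chosen ones, edgeR called 0, and 4 (13.8%) had an unadjusted p under 0.05, against 18.7% of all genes tested. DESeq2 called 1 higher and 1 lower, and limma-voom 0 higher and 1 lower. These are 6.9% and 3.45% of the family genes, where the same tools called 6.32% and 11.2% of all genes. The median log2 fold change was 0.08. The other genes of the MIA family, *Mia*, *Mia2* and *Mia3*, had log2 fold changes of 0.61, -0.13 and -0.13. Of 15 genes known from the inner ear, 8 were in the table and 5 were tested, with a median of -0.06. *Coch*, *Otof* and *Slc26a4* were too low to be tested. *Strc*, which encodes stereocilin of the inner ear, was not on that list and is named after its values were seen. It was higher in PyMT *Pcbp1*–/– tumors (0.769 to 9.07 CPM) than in PyMT *Pcbp1*+/+ tumors (0 to 0.457 CPM), with a log2 fold change of 3.53 (SE 0.67), given as a description with no test.

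Of the 8 tested genes for M20 peptidases and N-acyl amino acids, 6 lay above 0, with a median of 0.11. *Pm20d2*, the relative of *Pm20d1*, had a log2 fold change of -0.05 (SE 0.27). Netrins and their receptors had 8 tested genes with a median of -0.08. *Ntng2*, the relative of *Ntng1*, had -0.14 (SE 0.38), and the ligand gene *Lrrc4c* was too low to be tested. *Lrrc4*, which encodes the ligand of netrin-G2, had 20.2 CPM on average in PyMT *Pcbp1*–/– and 28.0 CPM in PyMT *Pcbp1*+/+ tumors and did not pass the test with edgeR (log2 fold change -0.46, SE 0.12, adjusted p = 0.0605). It did with DESeq2 (adjusted p = 0.0123) and limma-voom (adjusted p = 0.0322). The delta-protocadherins had 5 tested genes besides *Pcdh9* with a median of 0.20, and 4 of them lay above 0. *Pcdh1* had a log2 fold change of 0.52 (SE 0.15, adjusted p = 0.0956 from edgeR, and 0.0295 from DESeq2).

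Markers of the cell types that a mammary tumor can hold were compared in the same fit. Among 104 tested marker genes of 18 lists, edgeR called 0, and 14 (13.5%) had an unadjusted p under 0.05, below the 18.7% of all genes tested. DESeq2 called 5 higher and 0 lower, namely *Cdk1*, *Tpx2*, *Mki67* and *Ccnb1* of dividing cells and the macrophage gene *Lyz2*, and limma-voom called 8 higher and 3 lower. These are 4.81% and 10.6% of the marker genes, where the same tools called 6.32% and 11.2% of all genes. A lower share of a cell type and less RNA per cell cannot be told apart in whole tumors. The tumors held mammary epithelium, with the luminal epithelial genes summing to between 1686 and 2921 CPM in PyMT *Pcbp1*–/– and between 1910 and 3541 CPM in PyMT *Pcbp1*+/+ tumors. All 12 genes of dividing cells lay above 0, with a median log2 fold change of 0.40. So did all 8 macrophage genes, with a median of 0.24, while all 8 endothelial genes (median -0.20) and all 7 tested adipocyte genes (median -0.80) lay below. The adipocyte genes were high in 1 PyMT *Pcbp1*+/+ tumor, replicate 3, with a sum of 94.4 CPM against 4.84 to 17.3 CPM in the other 4, while PyMT *Pcbp1*–/– tumors had between 1.42 and 39.0 CPM.

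The medians of the other lists with 3 or more tested genes were -0.05 for luminal epithelial genes, -0.48 for milk proteins, -0.12 for basal epithelial genes, 0.33 for fibroblasts and 0.04 for pericytes. They were -0.10 for T cells, -0.06 for Schwann cells, 1.09 for chondrocytes, -0.04 for skin keratinocytes and 0.40 for salivary gland. The lists for B cells, neurons, melanocytes and skeletal muscle had 1 tested gene each, with log2 fold changes of -0.47, -1.16, -0.08 and 0.55. Neurons are the cells best known for *Ntng1* and *Pcdh9*. Their 8 listed markers summed to at most 2.39 CPM in any PyMT *Pcbp1*–/– tumor and to 10.7, 2.56, 1.40, 1.37 and 0.893 CPM in PyMT *Pcbp1*+/+ tumors, so that apart from replicate 1 the groups overlapped. The most abundant of them was *Tubb3*, *Elavl4*, *Nefl* and *Nefm* were not in the table, and *Rbfox3*, *Snap25*, *Stmn2* and *Syt1* were too low to be tested. PyMT *Pcbp1*+/+ replicate 1, the highest tumor for *Ntng1*, was also the highest for the neuron list. Replicate 2, the next for *Ntng1*, had a neuron sum close to the 2.39 CPM of PyMT *Pcbp1*–/– replicate 1, where *Ntng1* was low. The part of neurons in these values was not tested.

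The chondrocyte list deserves its values, since *Otor* belongs to a family also known from cartilage. Its genes summed to 287, 173, 82.4, 90.2, 180 and 55.8 CPM in PyMT *Pcbp1*–/– and to 63.0, 34.1, 74.5, 80.2 and 99.0 CPM in PyMT *Pcbp1*+/+ tumors. The groups overlapped. Its most abundant gene was *Col9a1*, all 4 tested genes lay above 0, *Acan*, *Comp* and *Matn3* were too low to be tested and *Matn1* was not in the table. The tumors with the most *Otor*, PyMT *Pcbp1*–/– replicates 3 and 4, were not those with the highest sum. Within genotype, *Otor* and this list had r = -0.533 over the 11 tumors (exact permutation p = 0.254, adjusted p = 0.840) and Spearman's coefficient = -0.273 (exact permutation p = 0.478, adjusted p = 0.998), with r = -0.481 without PyMT *Pcbp1*–/– replicates 2 and 3. The part of cartilage cells in the values of *Otor* was not tested.

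Whether the chosen genes rose and fell together from tumor to tumor was asked within each genotype, a spread that played no part in their choice. For each pair, log2(CPM + 0.5) was compared over the 11 tumors after the genotype mean was subtracted. *Pm20d1*, RP23-100B18.3 and RP23-75A23.1 had between 0 and 3 counts in each PyMT *Pcbp1*+/+ tumor, so in their pairs those 5 tumors add mostly counting error. RP24-225A16.7 had between 3 and 7 and *Otor* between 2 and 10 counts in those tumors, so counting error is large in their pairs too. Both limits hold for the lists and neighbors below. Of the 21 pairs, 10 had r above 0 and 0 had an adjusted p under 0.05 by the exact permutation of tumors within genotype. The smallest adjusted p was 0.373 for Pearson's r and 0.529 for Spearman's coefficient, and 1 pair had an unadjusted p under 0.05 for r and 0 for Spearman's coefficient. That pair was *Otor* and RP23-100B18.3, with r = -0.769 (exact permutation p = 0.0455, adjusted p = 0.373) and Spearman's coefficient = -0.642 (exact permutation p = 0.0551, adjusted p = 0.529). It rested on PyMT *Pcbp1*–/– replicates 2 and 3, without which r was -0.191.

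The pair with the highest r was *Pm20d1* and RP23-100B18.3, at 0.786 (exact permutation p = 0.0640, adjusted p = 0.373), with Spearman's coefficient = 0.367 (exact permutation p = 0.315, adjusted p = 0.815). PyMT *Pcbp1*–/– replicate 2 was highest for both genes, and without replicates 1 and 2 of that genotype r was 0.080. *Ntng1* and *Pcdh9*, both low in PyMT *Pcbp1*–/– tumors, had r = 0.530 (exact permutation p = 0.225, adjusted p = 0.473) and Spearman's coefficient = 0.055 (exact permutation p = 0.921, adjusted p = 0.967). Without PyMT *Pcbp1*+/+ replicates 1 and 2, r was 0.224, and over the 6 PyMT *Pcbp1*–/– tumors alone it was -0.407. RP24-225A16.7 and RP23-75A23.1 had r = -0.747 over the 6 PyMT *Pcbp1*–/– tumors alone, given as a description. The 5 genes that were higher in PyMT *Pcbp1*–/– tumors did not all have their highest values in the same tumor. *Otor* peaked in replicate 3, *Pm20d1* and RP23-100B18.3 in replicate 2, and RP24-225A16.7 in replicate 1, while RP23-75A23.1 was about as high in replicate 5 (1.92 CPM) as in replicate 6 (1.93 CPM).

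The same measure was computed against the mean of each of 20 lists with 3 or more tested genes, which made 140 pairs. By the exact permutation test 0 had an adjusted p under 0.05. An unadjusted p under 0.05 was found for 11 pairs with r and 13 with Spearman's coefficient, where about 7 are given by chance. The 40 interferon-stimulated genes were lower in PyMT *Pcbp1*–/– tumors, with 33 called lower and 0 higher and a median log2 fold change of -1.66. *Irf7*, *Dhx58* and *Oas1a*, with the smallest p, had log2 fold changes of -2.89 (SE 0.31), -2.28 (SE 0.26) and -1.94 (SE 0.24), with adjusted p = 0.00194, 0.00194 and 0.00247 from edgeR. Their list summed to between 576 and 832 CPM in PyMT *Pcbp1*–/– tumors and to 2038, 1835, 2537, 2119 and 894 CPM in PyMT *Pcbp1*+/+ tumors. PyMT *Pcbp1*+/+ replicate 5 was thus the lowest of its group for this list, as for *Ntng1* and *Pcdh9*.

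Over the 11 tumors, the interferon list and *Ntng1* nevertheless had r = 0.438 (exact permutation p = 0.447, adjusted p = 0.918) and Spearman's coefficient = -0.055 (exact permutation p = 0.921, adjusted p = 0.998), with r = 0.766 without PyMT *Pcbp1*+/+ replicates 1 and 2. For *Pcdh9*, r was 0.247 (exact permutation p = 0.665, adjusted p = 0.941) and Spearman's coefficient -0.055 (exact permutation p = 0.921, adjusted p = 0.998), with r = -0.403 without PyMT *Pcbp1*+/+ replicates 3 and 5. For the 5 other genes r with this list lay between -0.217 and 0.115. A p above the threshold in 11 tumors does not show that a relation is absent.

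The pairs with the smallest p for Pearson's r were *Otor* with T cell genes, RP24-225A16.7 with delta-protocadherins and *Pcdh9* with netrins and their receptors. *Otor* and the 4 tested T cell genes had r = 0.730 (exact permutation p = 0.00198, adjusted p = 0.148) and Spearman's coefficient = 0.855 (exact permutation p = 0.00463, adjusted p = 0.216). Within the 6 PyMT *Pcbp1*–/– tumors r was 0.970, and without PyMT *Pcbp1*–/– replicates 2 and 3 it was 0.581. The T cell list was low, summing to between 3.82 and 9.70 CPM in PyMT *Pcbp1*–/– and between 3.75 and 10.4 CPM in PyMT *Pcbp1*+/+ tumors. Its most abundant gene was *Cd8a*, and *Cd3d*, *Cd3g*, *Cd8b1* and *Trac* were too low to be tested. The part of T cells in the values of *Otor* was not tested. RP24-225A16.7 and the delta-protocadherins other than *Pcdh9* had r = 0.622 (exact permutation p = 0.00212, adjusted p = 0.148), Spearman's coefficient = 0.782 (exact permutation p = 0.0144, adjusted p = 0.335) and r = 0.288 without PyMT *Pcbp1*–/– replicates 1 and 5. *Pcdh9* and the netrins and receptors other than *Ntng1* had r = 0.825 (exact permutation p = 0.00321, adjusted p = 0.150), Spearman's coefficient = 0.673 (exact permutation p = 0.0465, adjusted p = 0.50) and r = 0.636 without PyMT *Pcbp1*+/+ replicates 3 and 5. By Spearman's coefficient the smallest p belonged to RP23-100B18.3 with endothelial cells and RP23-75A23.1 with pericytes. Both genes had counts near 0 in PyMT *Pcbp1*+/+ tumors, so only r within the 6 PyMT *Pcbp1*–/– tumors is given, as a description, at 0.518 and -0.765. None of these pairs passed the adjustment. Without 1 tumor, 3 pairs did. *Otor* and T cells had r = 0.908 (exact permutation adjusted p = 0.0405) without PyMT *Pcbp1*+/+ replicate 5. Without PyMT *Pcbp1*–/– replicate 1, *Pcdh9* and the netrin list had r = 0.898 (exact permutation adjusted p = 0.0486). RP23-100B18.3 and endothelial cells also passed without that tumor, but 5 of 10 tumors were near 0 counts, so no value is given. These 3 come from 140 pairs, computed again with each of the 11 tumors left out.

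Covariation with 14 nearest, overlapping or called neighbors was added after the values were seen. By the exact permutation test 2 of these pairs had an unadjusted p under 0.05 for r and 1 an adjusted p under 0.05. That pair was *Pcdh9* and RP23-216H22.6, a processed pseudogene on the same strand inside the span of *Pcdh9*, from 93194698 to 93195696 (r = 0.758, exact permutation p = 0.000486, adjusted p = 0.00681). Spearman's coefficient was 0.855 (exact permutation p = 0.00463, adjusted p = 0.0324), r within the PyMT *Pcbp1*–/– tumors was 0.801 and r without PyMT *Pcbp1*+/+ replicates 3 and 5 was 0.807. The pseudogene had 103, 273, 121, 135, 102 and 114 CPM in PyMT *Pcbp1*–/– and 125, 168, 117, 136 and 94.7 CPM in PyMT *Pcbp1*+/+ tumors, with the highest value of each group in the tumor with the highest *Pcdh9*. It did not follow *Pcdh9* between the genotypes (log2 fold change 0.14, SE 0.24, adjusted p = 0.795 from edgeR). Reads of a gene and of a pseudogene inside it could be shared, and the part of shared reads in this relation was not tested.

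RP23-100B18.3 and *Acvr1c*, which overlap on opposite strands, had r = 0.649 (exact permutation p = 0.0204, adjusted p = 0.143) and Spearman's coefficient = 0.881 (exact permutation p = 0.00255, adjusted p = 0.0324), with r = 0.722 without PyMT *Pcbp1*–/– replicates 2 and 6 and 0.738 within the PyMT *Pcbp1*–/– tumors. RP23-100B18.3 had between 0 and 2 counts in each PyMT *Pcbp1*+/+ tumor, so those 5 tumors add mostly counting error to this pair. No conclusion is drawn from its p. *Otor* and *Snrpb2* had r = 0.031 (exact permutation p = 0.941, adjusted p = 0.968) and Spearman's coefficient = 0.236 (exact permutation p = 0.543, adjusted p = 0.845), with r = -0.487 without PyMT *Pcbp1*–/– replicates 2 and 3. RP24-225A16.7 and *Gpx2* had r = -0.287 (exact permutation p = 0.387, adjusted p = 0.800) and Spearman's coefficient = -0.455 (exact permutation p = 0.210, adjusted p = 0.710), with r = -0.051 without PyMT *Pcbp1*–/– replicates 1 and 5.

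By the same measure, and as a description over all genes tested, the most alike genes to *Otor* were *Arhgef16*, *Sel1l3* and *Eya3* (r = 0.922, 0.918 and 0.907 over 11 tumors). Those of *Pm20d1* were *Dnd1*, *Tdrp* and *Cdkn2c* (r = 0.977, 0.950 and 0.924), those of *Ntng1* were *Ikbke*, *Rai14* and *Ier5* (r = 0.970, 0.943 and 0.935), and those of *Pcdh9* were *Lage3*, *Gtf3c2* and *Zfp111* (r = 0.955, 0.947 and 0.940). For RP24-225A16.7 they were RP23-393I12.4, RP23-114N1.4 and *Uqcrh-ps1* (r = 0.903, 0.877 and 0.874). For RP23-100B18.3 they were RP24-175C20.18, RP24-467O4.4 and AC163616.2 (r = 0.941, 0.937 and 0.917), and for RP23-75A23.1 they were RP23-309M3.5, *Cep85* and *Alkbh7* (r = 0.924, 0.908 and 0.904). None of these 21 genes was called between the genotypes by edgeR. The highest of so many r values is large whatever the genes share.

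Promoters of the chosen genes were read from the RefSeq set of GRCm38.p6, 250 bases before to 50 bases after the RefSeq start of a gene. For *Otor* that start lies 80 bases before the deposited one, and for *Ntng1* it lies 539 bases inside the deposited gene, so the printed *Ntng1* window is within it. For the other 3 matched genes a RefSeq start equals the deposited one. Of the 7 genes, 5 matched an entry, and *Pm20d1* and RP23-75A23.1 did not. Motifs were searched on both strands by their letters, a search added after the values were seen. GAAA followed by any 2 bases and again GAAA, the core of the interferon-stimulated response element, occurs in 3.44% of the 32851 promoters. TATAAA, the TATA box, occurs in 13.6%, and CCCCCC, a run of the base that PCBP1 binds in single strands, in 17.9%. The promoters of *Otor* and RP24-225A16.7 are printed as the pair of matched genes with the highest PyMT *Pcbp1*–/– levels, and those of *Ntng1* and *Pcdh9* as the genes that were lower. Capitals mark TATAAA and CCCCCC or its reverse complement.
*Otor*, chr2:143078143-143078442, plus strand: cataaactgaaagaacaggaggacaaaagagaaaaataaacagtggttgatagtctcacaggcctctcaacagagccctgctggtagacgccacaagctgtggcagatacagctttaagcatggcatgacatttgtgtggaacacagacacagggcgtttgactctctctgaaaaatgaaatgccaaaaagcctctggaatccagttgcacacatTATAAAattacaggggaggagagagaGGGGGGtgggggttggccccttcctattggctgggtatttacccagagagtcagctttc
RP24-225A16.7, chr12:76444247-76444546, plus strand: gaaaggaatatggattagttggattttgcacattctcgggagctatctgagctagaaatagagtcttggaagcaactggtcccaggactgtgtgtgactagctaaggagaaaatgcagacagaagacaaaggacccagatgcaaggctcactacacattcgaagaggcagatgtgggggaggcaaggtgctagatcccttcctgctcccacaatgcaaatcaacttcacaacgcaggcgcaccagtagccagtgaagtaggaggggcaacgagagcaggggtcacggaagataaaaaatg
*Ntng1*, chr3:110143423-110143722, minus strand: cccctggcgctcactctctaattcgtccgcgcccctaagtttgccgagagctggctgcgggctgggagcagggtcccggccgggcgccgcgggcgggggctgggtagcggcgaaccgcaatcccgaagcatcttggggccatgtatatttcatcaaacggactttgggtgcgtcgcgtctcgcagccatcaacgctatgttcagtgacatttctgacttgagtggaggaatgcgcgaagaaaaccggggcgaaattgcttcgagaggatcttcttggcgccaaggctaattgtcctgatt
*Pcdh9*, chr14:93890630-93890929, minus strand: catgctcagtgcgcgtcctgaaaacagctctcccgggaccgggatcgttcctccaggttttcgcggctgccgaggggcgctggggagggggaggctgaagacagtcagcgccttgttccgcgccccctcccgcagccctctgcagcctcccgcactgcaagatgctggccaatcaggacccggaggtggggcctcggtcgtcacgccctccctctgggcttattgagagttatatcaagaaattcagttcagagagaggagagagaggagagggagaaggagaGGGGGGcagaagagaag

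In none of the 6 entries of the 5 matched genes was the interferon-response motif found. The *Otor* promoter holds TATAAA 35 bases before the RefSeq start and a CCCCCC run on the minus strand, 9 bases before it. The *Pcdh9* promoter holds such a run 33 bases after the RefSeq start, and the other 3 genes hold none of the motifs. The promoters also differed in base composition, with 2 CG pairs and 47.3% G and C in *Otor* and 6 CG pairs and 49.3% in RP24-225A16.7, against 28 CG pairs and 59.7% in *Ntng1* and 18 CG pairs and 62.7% in *Pcdh9*. RP23-100B18.3 has 5 CG pairs and 46.3%. Over all promoters the medians were 7 CG pairs and 52.7%. A match of letters is a description and not evidence of binding.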

How the data were processed

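The 11 tumors were grouped by the genotype in their labels. Paired-end reads had been aligned to GRCm38 by the authors, using Bowtie2. The deposited values are an estimated count for each gene, of which 18.1% to 19.8% per tumor had a fractional part of any size, and CPM, each estimated count divided by the total of its column. The counting method and annotation version are not given in the sources used here. Deposited ends lie 1 past the last base and were corrected.

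After rounding, the estimated counts were fitted in edgeR 4.0.16 (R 4.3.3), TMM factors, its default filter and the quasi-likelihood test with no term beside genotype, and p-values were adjusted by Benjamini-Hochberg over the 19232 genes kept. P-values measure the spread between these tumors, and the labels do not say whether they came from separate animals. The labels give a single batch. Named genes were the chosen genes, *Pcbp1*, nearest and called neighbors, called list genes (for the interferon list the 3 with the smallest p in each direction) and the 3 most alike genes. The chosen genes and the lists were set with earlier results of these data known. Alternatives were DESeq2 1.42.0, limma-voom (limma 3.58.1) with quality weights, library size only, upper-quartile factors, no filter, a replicate block, each tumor left out, other windows, other pseudocounts, TMM-adjusted CPM and ratios of mean CPM. Correlations were tested by all 86400 permutations of tumors within genotype, two-sided. The fit was tried on simulated counts and the correlation test on simulated pairs, and no result given here rests on these trials. The pseudogene was aligned with blastn to GENCODE transcripts of GRCm39, from which no coordinates were taken.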

Additional observations from a re-analysis of the deposited data

Results flagged for a closer look

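The search for single tumors far from their group covered 20 sets of values, the chosen genes, *Pcbp1* and the called neighbors in each genotype. Chance gives about 1 in 20 such sets, and 3 were found. PyMT *Pcbp1*–/– replicate 2 stood apart for *Pm20d1*, at 7.80 CPM where the next tumor had 2.78, and for RP23-100B18.3, at 15.4 CPM where the next had 5.95. RP23-75A23.1 had its single PyMT *Pcbp1*+/+ count in replicate 5 (0.0893 CPM, the others 0). With the other tumors at 0, any single count had to stand apart, so this set adds nothing to the comparison with chance. No explanation was tested.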

How the results depend on the processing

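No alternative reversed a result, and the cause of each shift was not tested. The log2 fold change of *Pcbp1* lay between -3.60 and -3.34 under all 17 alternatives. Over all genes, 117 higher and 319 lower calls became 486 and 730 with DESeq2 and 968 and 1190 with limma-voom, so that the higher share of calls grew with both. Calls among neighbors were 5 higher and 1 lower with DESeq2, 4 higher and 2 lower with limma-voom, 1 higher with no filter on low counts, 1 higher and 0 lower of 35 tested within 250 kb and 2 higher and 2 lower of 98 within 1000 kb. Family calls were 1 higher and 1 lower with DESeq2 and 1 lower with limma-voom. Marker calls were 5 higher with DESeq2, 8 higher and 3 lower with limma-voom and 1 higher with upper-quartile factors. The interferon list had between 22 and 37 lower calls.

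With limma-voom the log2 fold change was 3.65 for *Pm20d1* (4.28 with edgeR), 3.99 for RP23-100B18.3 (5.51), 4.95 for RP23-75A23.1 (5.73), -1.74 for *Ntng1* (-2.42) and 3.25 for RP24-225A16.7 (3.95). As a ratio of mean CPM + 0.5 it was 4.05 for *Otor*, 2.45 for *Pm20d1*, 3.02 for RP24-225A16.7, 3.12 for RP23-100B18.3 and 1.95 for RP23-75A23.1.

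With 1 tumor left out, calls over all genes ranged from 41 to 187 higher and from 144 to 389 lower, neighbor calls from 0 to 3 higher and 0 to 1 lower, marker calls from 0 to 2 higher and 0 to 1 lower, and pairs of a chosen gene and a list from 0 to 2. RP23-75A23.1 had log2 fold changes from 5.50 to 7.20, the last without PyMT *Pcbp1*+/+ replicate 5. It was not tested without PyMT *Pcbp1*–/– replicates 1, 3, 4, 5 or 6.

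A replicate block, pairing tumors by number and leaving out PyMT *Pcbp1*–/– replicate 6, gave 42 higher and 118 lower calls over all genes. It gave 0 higher among neighbors, and RP23-75A23.1 was not tested. The labels do not say that tumors of the same number are a pair, and so few correlations cannot decide it. Profiles of the same number had r = 0.174, 0.0385, 0.00232, -0.0643 and 0.249, and only numbers 1 and 5 matched each other best.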
